A study of Homo sapiens with 24 samples.

Results

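The comparison described here sets AGS cells treated with PD0325901 against control AGS cells, with 4 libraries in each group, 8 of the 24 libraries of the series, across every gene of the deposited count table. AGS is an established line from a human gastric adenocarcinoma, and all cells of the series are labelled wild type. PD0325901, a small molecule that inhibits the kinases MEK1 and MEK2, was added at 0.035 µM, and RNA was taken after 24 h. The control cultures are labelled as untreated, and the labels do not say whether they received the solvent of the inhibitors. For direct comparisons the report also uses 4 libraries of cells given PI103, an inhibitor of PI3 kinase and mTOR, at 0.7 µM and 4 of cells given (5Z)-7-oxozeaenol, an inhibitor of TAK1, at 0.5 µM, both for 24 h. The titles assign each sample to its group, since the treatment field of later replicates counts the compound names upward. The groups hold biological replicates according to the labels, which do not say whether these were separate cultures. The p-values set each difference against the spread between libraries within groups, estimated over all 24 libraries of the series. A single line was used, so the values describe that line.

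MEK1 and MEK2 are the kinases that phosphorylate and activate the ERK kinases, at the end of a cascade that runs from receptor tyrosine kinases through RAS and RAF. Active ERK phosphorylates transcription factors, among them ETS proteins that bind with serum response factor, and the genes they switch on include immediate-early factors, cyclin D1, MYC and the pathway's own inhibitors, the dual-specificity phosphatases and the Sprouty and Spred proteins. These feedback genes are commonly used as a readout of pathway output in epithelial cancer cells.

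The 8 libraries held 51424603 to 84226380 counts assigned to genes, from which CPM, the counts scaled to a common library size, were computed. On the first principal component of log2 CPM over these libraries, which held 76.9% of the variance, the controls lay between -55.3 and -48.3. PD0325901 replicates 1, 3 and 4 lay between 42.2 and 48.7, and PD0325901 replicate 2 stood apart at 73.1, farther from the controls. Calls of named genes lost without replicate 2, and counts of calls that moved by over 1.5 times without it, are given beside those results. The epithelial identity of the line was seen in all 8 libraries by 8 markers, EPCAM, KRT8, KRT18, KRT19, KRT7, CDH1, CLDN4 and CLDN7. Their sum was 5929 to 6884 CPM in control and 6570 to 7955 CPM with PD0325901. Most of it came from KRT8, at 2560 to 3048 CPM in control, and KRT18, at 1604 to 2071 CPM. KRT7 (3.2 to 6.7 CPM in control) and CDH1 (11.8 to 14.5 CPM) were the lowest. Of 10 leukocyte markers, 7 were under 1 CPM in all 8 libraries, and CD3E and MS4A1 had 0 counts. All 6 endothelial markers were under 1 CPM, and CDH5, TEK and CLDN5 had 0 counts. Of 9 fibroblast markers, 5 were under 1 CPM in all 8 libraries, among them COL1A2, DCN and THY1 with at most 1 count, whereas PDGFRA (43.8 to 68.6 CPM) and COL1A1 (13.9 to 21.0 CPM) were present in both groups. Of the 6 fibroblast markers tested 4 rose and 1, PDGFRB, fell, with a median log2 fold change of 0.69. Those that rose were COL1A1, ACTA2 (1.60 to 3.40 CPM in control and 3.27 to 5.25 CPM with PD0325901), COL3A1 (0.0131 to 0.0733 CPM and 0.344 to 1.01 CPM) and LUM (0.0162 to 0.0656 CPM and 0.202 to 0.292 CPM). The summed fibroblast markers ranged from 64.5 to 85.6 CPM in control and from 67.6 to 95.4 CPM with PD0325901, and the endothelial markers from 0.130 to 0.210 CPM and from 0.229 to 0.337 CPM, with 1 of 1 tested, VWF, higher.

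PD0325901 changed the level of most expressed genes. Of 13947 genes tested, 8176 (58.6%) were called at an adjusted p under 0.05 with edgeR's quasi-likelihood test, the source of every adjusted p below. Of all genes tested, 4004 (28.7%) rose and 4172 (29.9%) fell, and the median log2 fold change over all tested genes was -0.02. In 6832 genes (49%) the CPM of the 4 treated libraries did not overlap those of the 4 controls. Testing for a change larger than 1 log2 unit gave 1098 genes (7.87%), split into 750 (5.38%) that were higher and 348 (2.5%) that were lower. Without PD0325901 replicate 2, 7436 genes were called. Among the 8176 called genes, replicate 2 was the treated library farthest from the control mean, in the direction of the change, for 4577 genes (56%), against 614, 1479 and 1506 genes for replicates 1, 3 and 4.

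Gene lists are described below by their tested members. The shares over all genes, beside which each list count stands, were 28.7% called higher, 29.9% called lower and 49% with groups not overlapping. The lists have 1042 entries, some genes standing in more than 1 list, and 933 of these passed the filter on low counts, which a gene can pass through the group in which it is high.

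**Figure D1:**
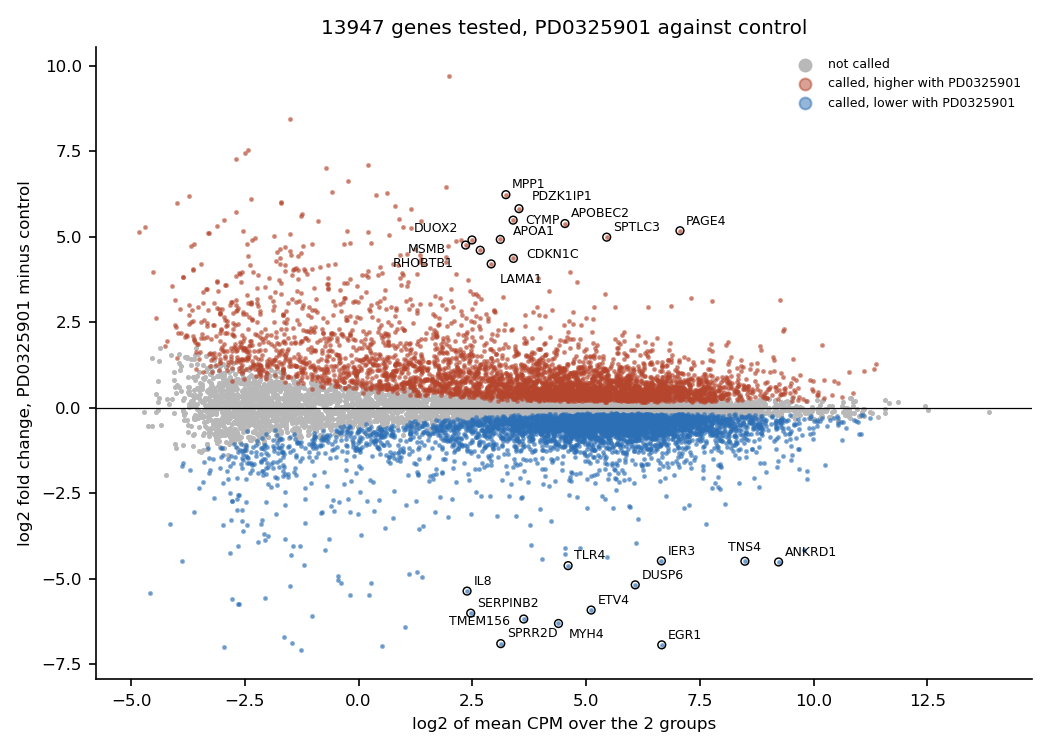
Log2 fold change of PD0325901 minus control (y axis) against the log2 of the mean CPM over the 2 groups (x axis) for 13947 genes, with called genes in colour and the 12 largest rises and 12 largest falls among genes of at least 5 CPM circled and named. EGR1 lies lowest of the named genes at -6.94 and MPP1 highest at 6.24.

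Among genes with a mean of at least 5 CPM over the 8 libraries, the 12 largest falls were EGR1, SPRR2D, MYH4, TMEM156, SERPINB2, ETV4, IL8, DUSP6, TLR4, ANKRD1, TNS4 and IER3. EGR1 encodes a zinc-finger transcription factor and is a classical immediate-early gene. Its level was 157, 240.3, 158 and 249 CPM in control replicates 1 to 4 and 2.55, 0.79, 1.53 and 1.71 CPM in PD0325901 replicates 1 to 4. Every treated library was far below every control, and EGR1 fell by 6.94 on the log2 scale (SE 0.553, adjusted p = 2.04e-09). ANKRD1, a nuclear ankyrin-repeat protein often used as a target gene of the coactivator YAP, was at 802, 1370.4, 958 and 1472 CPM in control and 53.8, 19.9, 60.2 and 67.3 CPM with PD0325901. The groups did not overlap, and ANKRD1 fell by 4.51 on the log2 scale (SE 0.349, adjusted p = 3.39e-10). SERPINB2, which encodes an inhibitor of plasminogen activators, was at 10.5, 9.82, 7.26 and 15.9 CPM in control and 0.131, 0.172, 0.172 and 0.186 CPM after treatment. Its treated libraries were all near 0, and it fell by 6.01 on the log2 scale (SE 0.31, adjusted p = 4.67e-14). TMEM156, a transmembrane protein gene, had 28.7, 24.8, 20.7 and 23.5 CPM in control and 0.337, 0.343, 0.358 and 0.295 CPM with the inhibitor, again with no overlap, and fell by 6.18 on the log2 scale (SE 0.256, adjusted p = 3.50e-15).

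The bases upstream of the transcription start of these 4 genes are shown because each holds a searched motif. The motif is either the CArG box bound by serum response factor or TGANTCA, in which N is any base. Sites of FOS and JUN dimers have this form with C or G in the middle. The middle base is T in ANKRD1, A in SERPINB2 and C in TMEM156, so only TMEM156 holds the FOS and JUN form. The 250 bases before the start, from RefSeq on GRCh38.p14, are printed 5′ to 3′ on the gene's strand, with the motif in capitals. They are EGR1 at chr5:138465229-138465478 (forward strand), ANKRD1 at chr10:90921088-90921337 (reverse strand), SERPINB2 at chr18:63887455-63887704 (forward strand) and TMEM156 at chr4:39032410-39032659 (reverse strand).
EGR1: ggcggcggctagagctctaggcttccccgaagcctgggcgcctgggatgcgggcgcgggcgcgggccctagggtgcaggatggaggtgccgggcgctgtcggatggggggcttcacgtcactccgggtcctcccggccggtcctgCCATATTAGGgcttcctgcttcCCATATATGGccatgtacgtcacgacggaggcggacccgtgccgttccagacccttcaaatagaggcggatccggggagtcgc
ANKRD1: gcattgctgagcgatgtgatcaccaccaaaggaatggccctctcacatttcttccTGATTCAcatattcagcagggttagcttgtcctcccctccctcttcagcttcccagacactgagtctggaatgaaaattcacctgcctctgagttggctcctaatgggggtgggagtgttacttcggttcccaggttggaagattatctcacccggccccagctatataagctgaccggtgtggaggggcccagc
SERPINB2: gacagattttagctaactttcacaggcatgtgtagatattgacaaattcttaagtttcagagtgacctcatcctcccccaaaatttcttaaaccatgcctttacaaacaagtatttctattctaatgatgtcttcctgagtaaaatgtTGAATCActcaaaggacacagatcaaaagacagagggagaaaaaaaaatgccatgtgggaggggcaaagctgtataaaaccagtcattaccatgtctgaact
TMEM156: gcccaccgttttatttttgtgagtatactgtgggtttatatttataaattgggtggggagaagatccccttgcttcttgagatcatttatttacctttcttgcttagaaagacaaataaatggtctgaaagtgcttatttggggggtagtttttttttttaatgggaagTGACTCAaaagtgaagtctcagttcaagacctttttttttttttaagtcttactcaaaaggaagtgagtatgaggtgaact
EGR1 carries a pair of CArG boxes, beginning 105 and 83 bases before the start. The TGANTCA matches begin 195 bases before the start in ANKRD1, 102 in SERPINB2 and 81 in TMEM156. Both strands were searched, and the same search over 35114 promoters of 27303 genes found a CArG box in 1.16% of promoters and 1.44% of genes, and TGANTCA in 6.57% and 8.06%. The core of ETS sites, CCGGAA, was in 14.5% of promoters and 17.2% of genes, TGACGTCA in 1.65% and 2.03%, and CACGTG in 6.35% and 7.73%. Of the 42 genes that fell among the largest falls and a set of key pathway genes, 30 had a promoter in the table. A CArG box was present in 1 of these 30, CCGGAA in 9, TGANTCA in 5, TGACGTCA in 1 and CACGTG in 6. The 4 genes were picked for holding a motif, and a match describes letters in this window only.

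The remaining large falls included an epidermal protein, a receptor, a cytokine and an adhesion protein. TNS4, a tensin that links integrins to the cytoskeleton, was at 736, 702, 614 and 702 CPM in control and 46.9, 13.1, 28.2 and 34.1 CPM with PD0325901. The groups stood apart, with treated replicate 2 lowest, and TNS4 fell by 4.49 on the log2 scale (SE 0.39, adjusted p = 2.40e-09). TLR4, the receptor for bacterial lipopolysaccharide, fell from 46.8 ± 5.69 to 1.89 ± 0.928 CPM (log2 fold change -4.62 ± 0.335); here and below means are given ± SD over 4 libraries and fold changes ± SE. IL8, the older symbol of the neutrophil chemokine CXCL8, fell from 10.2 ± 4.91 to 0.245 ± 0.0655 CPM (log2 fold change -5.37 ± 0.403). SPRR2D, of the small proline-rich proteins of the cornified envelope, fell from 17.3 ± 9.12 to 0.142 ± 0.0877 CPM (log2 fold change -6.91 ± 0.518), and the myosin heavy chain gene MYH4 from 41.5 ± 8.63 to 0.529 ± 0.27 CPM (log2 fold change -6.32 ± 0.55). SPRR2D and MYH4 have close paralogs, and reads without a unique alignment were not counted, so their levels are uncertain.

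The 12 largest rises were MPP1, PDZK1IP1, CYMP, APOBEC2, PAGE4, SPTLC3, APOA1, DUOX2, MSMB, RHOBTB1, CDKN1C and LAMA1. MPP1, a membrane-associated guanylate kinase homologue, was at 0.194, 0.447, 0.22 and 0.157 CPM in control and 14.2, 25.2, 19 and 16 CPM with PD0325901. All treated libraries were above all controls, and MPP1 rose by 6.24 on the log2 scale (SE 0.351, adjusted p = 6.82e-13). SPTLC3, a subunit of the serine palmitoyltransferase that starts sphingolipid synthesis, was at 2.2, 1.99, 3.3 and 3.06 CPM in control and 63.7, 139, 66.4 and 70.9 CPM after treatment. There was no overlap between the groups, and it rose by 4.99 on the log2 scale (SE 0.296, adjusted p = 2.24e-12). PAGE4, a cancer/testis antigen, was at 4.45, 9.07, 6.99 and 8.22 CPM in control and 215, 249.97, 250.03 and 326 CPM with the inhibitor. It was the one gene of the 12 in which treated replicate 4 was highest; in the other 11 the highest was replicate 2. PAGE4 rose by 5.18 on the log2 scale (SE 0.295, adjusted p = 1.26e-12). APOA1, the main protein of high-density lipoprotein, rose from 0.554 ± 0.191 to 16.8 ± 6.63 CPM (log2 fold change 4.93 ± 0.319). DUOX2, an epithelial oxidase that makes hydrogen peroxide, rose from 0.352 ± 0.132 to 10.9 ± 2.65 CPM (log2 fold change 4.91 ± 0.335). CDKN1C, which encodes the CDK inhibitor p57, rose from 0.962 ± 0.241 to 20.2 ± 10.4 CPM (log2 fold change 4.37 ± 0.304). LAMA1, a laminin chain of basement membranes, rose from 0.759 ± 0.224 to 14.3 ± 3.92 CPM (log2 fold change 4.21 ± 0.262). CYMP overlaps another gene on its strand over 55.3% of its exons, so its counts are uncertain.

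On GRCh38, GENCODE release 29 places EGR1 at chr5:138465490-138469315, forward strand, DUSP6 at chr12:89347232-89353271, reverse strand, ETV4 at chr17:43527844-43579620, reverse strand, CCND1 at chr11:69641087-69654474, forward strand, LYZ at chr12:69348341-69354234, forward strand and MPP1 at chrX:154778684-154821007, reverse strand. Counts are per gene, and the table does not divide them by exon or transcript. Exons of some genes named below are shared with another gene of the same strand, over 19.9% in SERPINB2, 20.2% in RRM2, 17.6% in NFE2L2, 16.2% in CEACAM5 and 15% in EFNA4, or lie under a gene of the other strand, over 34% in LYZ and 41.2% in DDIT4, and the levels of these genes are less certain.

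Dual-specificity phosphatases, of which some but not all act mainly on ERK, were mostly lower with PD0325901. So were the Sprouty and Spred inhibitors, which act higher in the cascade. Of 9 phosphatase genes tested, 7 fell and 1 rose, with a median log2 fold change of -0.79; of 6 Sprouty and Spred genes, 4 fell and 0 rose, with a median of -0.95. DUSP6 encodes a cytoplasmic phosphatase specific for ERK. It was at 134, 129.6, 115 and 148 CPM in control replicates 1 to 4 and 3.71, 1.72, 4.24 and 4.75 CPM with PD0325901. The treated libraries were all below 5 CPM and the controls all above 100 CPM, and DUSP6 fell by 5.18 on the log2 scale (SE 0.325, adjusted p = 8.88e-12). DUSP4, a nuclear phosphatase of the same family, was at 359, 368, 361 and 451 CPM in control and 97.6, 63.7, 103 and 115 CPM with treatment. It had no overlap between groups and fell by 2.02 on the log2 scale (SE 0.176, adjusted p = 9.50e-10). DUSP1 fell from 69.8 ± 19.5 to 11.6 ± 1.62 CPM (log2 fold change -2.60 ± 0.208). DUSP10, which prefers p38 and JNK, was the member that rose, from 6.03 ± 0.897 to 8.03 ± 2.23 CPM (log2 fold change 0.41 ± 0.148) with overlapping groups. Its call was lost without PD0325901 replicate 2 or control replicates 1 or 4, and over the fits without 1 library the log2 fold change ran from 0.25 to 0.55. It was also lost with a fit of only the 2 groups. DUSP7 was at 15 ± 3.15 CPM in control and 14.1 ± 1.81 CPM with PD0325901 (log2 fold change -0.10 ± 0.131, adjusted p = 0.545). DUSP5 had at most 1 count in any of the 8 libraries and was not tested.

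SPRY4, a Sprouty protein that restrains RAS activation, was at 43.3, 44.6, 39.2 and 48.9 CPM in control and 3.32, 1.17, 2.58 and 3.19 CPM with PD0325901. The treated libraries were all lower, and SPRY4 fell by 4.10 on the log2 scale (SE 0.291, adjusted p = 4.58e-11). SPRED1, which brings the RAS-inactivating protein neurofibromin to the membrane, was at 101, 103, 131 and 98.3 CPM in control and 20.5, 9.56, 12.8 and 15.7 CPM with treatment. It did not overlap between groups and fell by 2.89 on the log2 scale (SE 0.264, adjusted p = 3.08e-09). SPRED2 fell from 94.7 ± 2.27 to 39 ± 12.1 CPM (log2 fold change -1.28 ± 0.174). SPRY2 did not pass the test: it was at 23.7 ± 3.51 CPM in control and 28.3 ± 4.95 CPM with PD0325901 (log2 fold change 0.26 ± 0.141, adjusted p = 0.121), with overlapping groups. It was called without PD0325901 replicate 2 or control replicate 3, and over the fits without 1 library the log2 fold change ran from 0.18 to 0.40. It was also called with scaling by library totals or upper quartile scaling. About 40.5% of the exons of DUSP6 lie under an antisense transcript in GENCODE, and the sources used here do not say if counting was strand-aware.

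**Figure D2:**
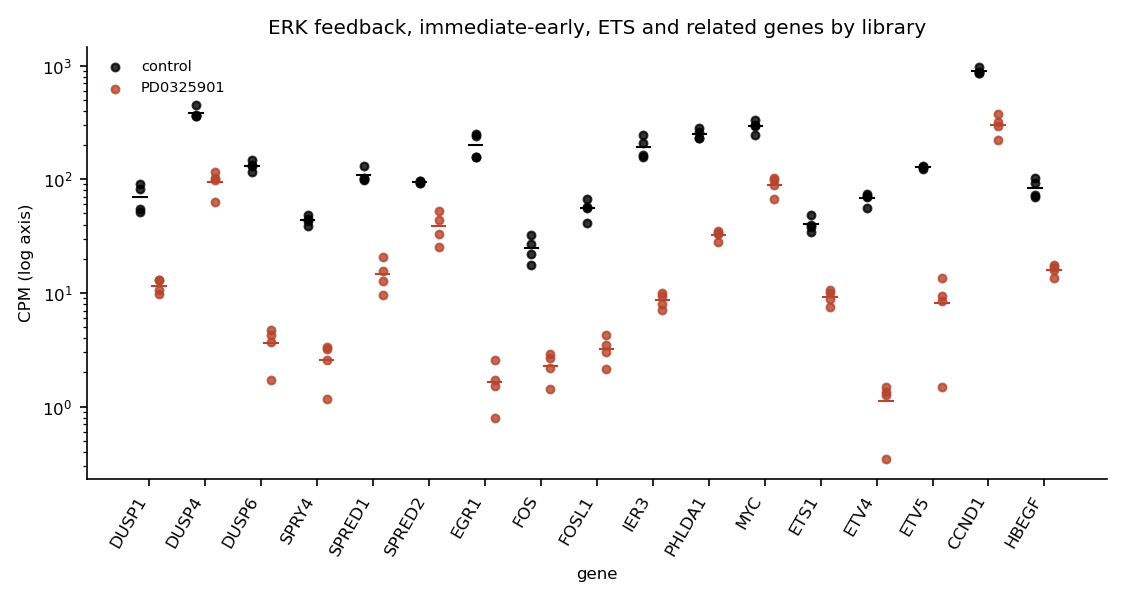
CPM on a log axis for 17 genes in each library, control in black and PD0325901 in red, with the mean as a bar. In none of the 17 do the groups overlap, and treated replicate 2 lies well below the other treated libraries for ETV4 and ETV5.

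Of 23 immediate-early genes, which respond to growth factors without new protein synthesis, 22 fell and 0 rose, with a median log2 fold change of -1.71. The groups did not overlap in 22 of these 23, against 49% of all genes. FOS, which forms the AP-1 factor with JUN proteins, was at 17.8, 27, 21.9 and 32.6 CPM in control and 2.89, 1.43, 2.19 and 2.67 CPM with PD0325901. Each of the treated libraries was lower and FOS fell by 3.44 on the log2 scale (SE 0.254, adjusted p = 7.09e-11). FOSL1, a FOS relative whose protein is stabilised by ERK, was at 55.8, 56.9, 41.6 and 67.2 CPM in control and 4.24, 2.16, 3.5 and 3.06 CPM with treatment. It likewise stood apart and fell by 4.10 on the log2 scale (SE 0.276, adjusted p = 1.83e-11). IER3, a stress-induced gene linked to survival, fell from 193 ± 41.4 to 8.62 ± 1.32 CPM (log2 fold change -4.48 ± 0.234), with 26.5% of its exons under an antisense transcript. PHLDA1, a pleckstrin-homology protein induced by growth factors, fell from 250.5 ± 23.7 to 32.6 ± 3.001 CPM (log2 fold change -2.94 ± 0.153). CTGF and CYR61, matricellular proteins that are also target genes of YAP, fell from 157 ± 11 to 48.5 ± 13.1 CPM (log2 fold change -1.69 ± 0.17) and from 80 ± 11.6 to 32.3 ± 2.2 CPM (log2 fold change -1.31 ± 0.127). The exception was JUND, a JUN protein present in resting cells, at 94.3 ± 18.2 CPM in control and 95 ± 9.34 CPM with PD0325901 (log2 fold change 0.01 ± 0.124, adjusted p = 0.949).

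MYC, the growth-promoting transcription factor, was at 301, 294, 247 and 329.8 CPM in control and 102, 67.5, 99 and 89.9 CPM with PD0325901. The ranges of the groups were apart, and MYC fell by 1.71 on the log2 scale (SE 0.117, adjusted p = 6.28e-12). Its network moved both ways: of 13 members 4 rose and 4 fell. MXD4, a MAX partner that represses MYC target genes, rose from 10.1 ± 1.67 to 60.5 ± 11.1 CPM (log2 fold change 2.59 ± 0.193), and MXD1, of the same family, fell from 30.9 ± 1.12 to 18.8 ± 5.46 CPM (log2 fold change -0.71 ± 0.132). MAX itself fell from 67.9 ± 2.83 to 54.1 ± 4.34 CPM (log2 fold change -0.33 ± 0.079).

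Among 15 ETS factors, 8 fell and 2 rose, with a median of -0.40. The PEA3 subfamily, ETV1, ETV4 and ETV5, is known for its dependence on ERK signalling. ETV4 was at 71.3, 70, 56.3 and 74.3 CPM in control and 1.5, 0.343, 1.35 and 1.27 CPM with PD0325901. Treated replicate 2 was the lowest of all, no treated library reached 2 CPM, and ETV4 fell by 5.92 on the log2 scale (SE 0.429, adjusted p = 1.46e-10). ETV5 was at 123, 128, 129 and 131 CPM in control and 13.7, 1.49, 9.32 and 8.44 CPM after treatment. The controls were close together and far above the treated libraries, of which replicate 2 was lowest, and ETV5 fell by 3.96 on the log2 scale (SE 0.493, adjusted p = 9.86e-07). ETV1 was low throughout, with 84 to 126 counts per control library and 1 to 4 per treated library. It fell without overlap of the groups (log2 fold change -5.06, adjusted p = 8.91e-11). ETS1 fell from 40.2 ± 6.27 to 9.24 ± 1.39 CPM (log2 fold change -2.12 ± 0.167) and ETS2 from 52.9 ± 2.39 to 26.5 ± 3.49 CPM (log2 fold change -1.0 ± 0.109). ELF3, an ETS factor of differentiated epithelium, rose from 292 ± 23.4 to 367 ± 70 CPM (log2 fold change 0.33 ± 0.119), with overlapping groups. Its call was lost without PD0325901 replicate 2 or control replicate 1, and over the fits without 1 library the log2 fold change ran from 0.23 to 0.42. SPDEF, the other factor that rose and one named after its values were seen, was below 1 CPM in mean.

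Components upstream of ERK moved less and in both directions. Of 23 kinases and adaptors of the cascade 5 rose and 6 fell, so that 47.8% were called, against 58.6% of all genes. MAPK3, which encodes ERK1, was at 43.1, 38, 40.3 and 40.2 CPM in control and 86.3, 106, 92.9 and 76.9 CPM with PD0325901. It was higher in every treated library and rose by 1.16 on the log2 scale (SE 0.0962, adjusted p = 1.64e-10). Of the drug's targets, MAP2K1 (MEK1) rose from 77.8 ± 2.67 to 96 ± 7.2 CPM (log2 fold change 0.30 ± 0.0847) and MAP2K2 (MEK2) was at 83.4 ± 9.29 CPM in control and 81.4 ± 8.23 CPM with PD0325901 (log2 fold change -0.03 ± 0.0965, adjusted p = 0.776). KSR1, a scaffold that joins RAF, MEK and ERK, fell from 18.5 ± 2.8 to 9.75 ± 1.71 CPM (log2 fold change -0.93 ± 0.151), the RAS exchange factor SOS1 from 47 ± 4.33 to 32.9 ± 5.99 CPM (log2 fold change -0.52 ± 0.106) and the kinase BRAF from 22.2 ± 1.36 to 16.6 ± 2.18 CPM (log2 fold change -0.42 ± 0.0962).

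Of 5 ligands of the EGF receptor family tested, 3 fell and 1 rose, with a median of -0.96. HBEGF, a membrane-anchored EGF-like ligand, was at 69.2, 93, 72.3 and 103 CPM in control and 16.9, 17.6, 16 and 13.5 CPM with PD0325901. The groups stood apart, and HBEGF fell by 2.40 on the log2 scale (SE 0.142, adjusted p = 5.04e-13). TGFA fell from 44.5 ± 2.17 to 21.6 ± 1.93 CPM (log2 fold change -1.04 ± 0.0855) and BTC from 5.1 ± 0.615 to 2.61 ± 0.0943 CPM (log2 fold change -0.96 ± 0.155). EREG was at 0.103 ± 0.0506 CPM in control and 0.187 ± 0.0308 CPM with PD0325901 (log2 fold change 0.79 ± 0.383, adjusted p = 0.0792). It was called without control replicate 3, and over the fits without 1 library the log2 fold change ran from 0.57 to 1.11. It was also called with upper quartile scaling. AREG had 0 counts in all 8 libraries; whether its reads were lost in alignment or counting cannot be told from the table, so the 0 is not read as absent expression. The 1 ligand that rose was NRG4, a neuregulin named after its values were seen, with a mean below 1 CPM.

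Receptor tyrosine kinases and their IRS and GAB adaptors split, with 6 of 20 higher and 7 lower. EGFR, the receptor of those ligands, was at 62.1, 46.5, 49.4 and 50.8 CPM in control and 23.9, 20.9, 13.7 and 18.5 CPM with PD0325901. Every treated library was lower, and EGFR fell by 1.44 on the log2 scale (SE 0.121, adjusted p = 2.25e-10). MET, the receptor for hepatocyte growth factor, was at 115, 109, 126 and 108 CPM in control and 49.8, 40.7, 34.4 and 38 CPM with treatment. It had no overlap and fell by 1.49 on the log2 scale (SE 0.137, adjusted p = 1.17e-09). IRS1, the docking protein of the insulin receptor, fell from 72.6 ± 4.22 to 29.4 ± 3.9 CPM (log2 fold change -1.31 ± 0.123). In the other direction, ERBB2 rose from 108 ± 3.01 to 149 ± 11 CPM (log2 fold change 0.47 ± 0.0776), and ERBB3, its partner that recruits PI3 kinase, from 40.5 ± 2.06 to 48.4 ± 6.27 CPM (log2 fold change 0.26 ± 0.0882). Its call was lost without PD0325901 replicate 2, and over the fits without 1 library the log2 fold change ran from 0.19 to 0.31. The FGF receptors FGFR3 and FGFR4 rose from 14.7 ± 1.05 to 30.8 ± 1.35 CPM (log2 fold change 1.07 ± 0.0914) and from 30 ± 1.91 to 57 ± 3.56 CPM (log2 fold change 0.93 ± 0.0843). The docking protein GAB1 rose from 43.4 ± 8.31 to 82.3 ± 16.3 CPM (log2 fold change 0.92 ± 0.122). Of 14 Eph receptors and ephrins, which signal between neighbouring cells, 8 rose and 3 fell. EPHA2 fell from 378 ± 51.5 to 115 ± 20.8 CPM (log2 fold change -1.72 ± 0.131), and its ligand EFNA4 rose from 17.8 ± 2.52 to 50.3 ± 3.51 CPM (log2 fold change 1.5 ± 0.109).

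Of 8 D and E cyclins and their kinases 3 fell and 1 rose, 2 with scaling by library totals or upper quartile. In this list 50% were called, against 58.6% of all genes. CCND1, which encodes cyclin D1, the partner of CDK4 and CDK6 in early G1, was at 978, 859, 877 and 851 CPM in control and 372, 223, 292 and 318 CPM with PD0325901. The groups did not overlap, and CCND1 fell by 1.57 on the log2 scale (SE 0.159, adjusted p = 7.49e-09). CDK4 fell from 173 ± 10.5 to 124 ± 18.6 CPM (log2 fold change -0.49 ± 0.108) and CDC25A, a phosphatase that activates CDKs, from 52.5 ± 8.004 to 38.7 ± 4.37 CPM (log2 fold change -0.44 ± 0.106), while cyclin E1 (CCNE1) rose from 53.5 ± 4.93 to 64.7 ± 3.5 CPM (log2 fold change 0.27 ± 0.0838) with overlapping groups. Of 9 CDK inhibitors and RB family members, 4 rose and 4 fell. CDKN1B, which encodes p27, fell from 159 ± 13.8 to 135 ± 5.47 CPM (log2 fold change -0.24 ± 0.0785), and CDKN1A, which encodes p21, fell from 165 ± 22.8 to 120.3 ± 18.4 CPM (log2 fold change -0.45 ± 0.143). The call of CDKN1B was lost without PD0325901 replicate 1 or control replicate 3, and over the fits without 1 library the log2 fold change ran from -0.27 to -0.15. It was also lost with scaling by library totals, upper quartile scaling or a fit of only the 2 groups. The call of CDKN1A was lost without PD0325901 replicate 2, and over the fits without 1 library the log2 fold change ran from -0.51 to -0.35. CDKN1C, described above, rose, as did CDKN2B (p15), from 76.2 ± 3.59 to 115 ± 26.8 CPM (log2 fold change 0.60 ± 0.126).

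Of 40 DNA replication genes 14 fell and 1 rose, with a median of -0.17, and of 36 mitosis genes 20 fell and 0 rose, with a median of -0.48. Called in either direction were 37.5% of the replication genes and 55.6% of the mitosis genes, against 58.6% of all genes. Of all genes 29.9% were called lower and 28.7% higher. Without PD0325901 replicate 2 the replication genes had 11 falls, 3 rises and a median of -0.06, and the mitosis genes 10 falls, 0 rises and a median of -0.30. Without control replicate 3 the falls among mitosis genes numbered 12. The rises among replication genes numbered 0 without control replicates 2 or 4, 2 without control replicate 3, in the fit of only the 2 groups, with RLE size factors or with the replicate number as a block, and 3 with scaling by library totals or upper quartile. CDC6, which loads the replicative helicase, fell from 244 ± 8.06 to 128 ± 12.7 CPM (log2 fold change -0.93 ± 0.112), and RRM2, the regulated subunit of ribonucleotide reductase, from 283 ± 17.1 to 179 ± 27.5 CPM (log2 fold change -0.66 ± 0.138). ECT2, which drives cytokinesis through RhoA, was at 455, 496, 544 and 447 CPM in control and 180.5, 127, 192 and 205 CPM with treatment. All treated libraries were lower and ECT2 fell by 1.46 on the log2 scale (SE 0.185, adjusted p = 3.53e-07). CKS1B, a CDK subunit, fell from 477 ± 85.2 to 255 ± 88.4 CPM (log2 fold change -0.90 ± 0.23). In these bulk samples, fewer cycling cells and less RNA of such genes per cell cannot be told apart.

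Regulators of apoptosis moved in both directions. BCL2L11, which encodes BIM, a BH3-only protein that ERK marks for degradation, was at 19.1, 14.7, 17.7 and 13.1 CPM in control and 30.4, 29.5, 23.7 and 24.5 CPM with PD0325901. There was no overlap between the groups, and it rose by 0.74 on the log2 scale (SE 0.106, adjusted p = 1.47e-06). BMF, another BH3-only protein, rose from 11.4 ± 1.68 to 38.7 ± 13.6 CPM (log2 fold change 1.76 ± 0.167). Of 10 death-promoting genes 4 rose and 2 fell; the 2 were PMAIP1 (NOXA), from 72.5 ± 13.8 to 17.2 ± 5.31 CPM (log2 fold change -2.07 ± 0.228), and BBC3 (PUMA), from 72.9 ± 13.4 to 52.3 ± 8.04 CPM (log2 fold change -0.48 ± 0.135) with overlapping groups. Of 6 survival genes of the BCL2 and IAP families, 5 fell and 0 rose, with a median of -0.53. MCL1 fell from 562 ± 18.8 to 364 ± 30.7 CPM (log2 fold change -0.63 ± 0.0829) and BCL2L1 (BCL-XL) from 549 ± 33.6 to 368 ± 34.1 CPM (log2 fold change -0.58 ± 0.0882). XIAP was at 76.4 ± 11.2 CPM in control and 64.5 ± 11.6 CPM with PD0325901 (log2 fold change -0.24 ± 0.121, adjusted p = 0.0862). It was called without PD0325901 replicate 2 or control replicate 4, and over the fits without 1 library the log2 fold change ran from -0.31 to -0.12. BCL2L1 and CDK4 have 43% and 43.2% of their exons under genes on the other strand.

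The p53 and FOXO lists were mixed. Of 23 p53 target genes 12 fell and 7 rose; GDF15, a stress-induced cytokine, fell from 366 ± 94.2 to 72.4 ± 16.3 CPM (log2 fold change -2.34 ± 0.218), and TP53INP1, a nuclear stress protein, rose from 48.7 ± 7.63 to 121 ± 24 CPM (log2 fold change 1.31 ± 0.123). Of 15 FOXO targets and PI3 kinase feedback genes 6 rose and 4 fell. CCNG2, an atypical cyclin that FOXO factors induce, rose from 13.9 ± 3.5 to 30.9 ± 7.4 CPM (log2 fold change 1.15 ± 0.145). TXNIP, which binds thioredoxin and limits glucose uptake, was at 442, 499.6, 415 and 489 CPM in control and 117, 52.9, 52.1 and 40.6 CPM with PD0325901. The groups stood apart, and TXNIP fell by 2.81 on the log2 scale (SE 0.237, adjusted p = 6.70e-10).

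Genes of sterol and fatty acid metabolism were mostly higher. Of 26 genes of cholesterol synthesis and uptake, 23 rose and 1 fell, with a median log2 fold change of 0.73. The groups did not overlap in 22 of the 26, against 49% of all genes. HMGCS1, an early enzyme of the pathway, rose from 289.9 ± 93.2 to 816 ± 231 CPM (log2 fold change 1.49 ± 0.183), MVD, a later step of the mevalonate pathway, from 28.2 ± 2.07 to 86.4 ± 15.8 CPM (log2 fold change 1.62 ± 0.131) and TM7SF2, a sterol reductase, from 26.4 ± 2.21 to 114 ± 17.4 CPM (log2 fold change 2.11 ± 0.121).

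Of 9 genes of cholesterol efflux and LXR targets 6 rose and 0 fell, with a median of 1.0. ABCA1, the transporter that exports cholesterol to APOA1, was at 10.6, 5.7, 9.16 and 7.82 CPM in control and 20.7, 23.9, 11.3 and 16.8 CPM with PD0325901. The ranges came close but did not overlap, and ABCA1 rose by 1.12 on the log2 scale (SE 0.248, adjusted p = 4.40e-04). NPC2, which carries cholesterol out of lysosomes, rose from 129 ± 7.24 to 282 ± 29 CPM (log2 fold change 1.13 ± 0.102), and its partner NPC1 was at 97.2 ± 5.38 CPM in control and 93.2 ± 13.6 CPM with PD0325901 (log2 fold change -0.06 ± 0.0946, adjusted p = 0.607). SREBF1, the gene of the factor that drives fatty acid synthesis, was at 144 ± 21 CPM in control and 127 ± 8.72 CPM with PD0325901 (log2 fold change -0.18 ± 0.102, adjusted p = 0.125).

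In fatty acid synthesis 10 of 15 genes rose and 1 fell (median 0.33), and in fatty acid oxidation 15 of 20 rose and 0 fell (median 0.53); 1 oxidation gene was called lower without PD0325901 replicate 4 or with the replicate number as a block. ACSS2, which makes acetyl-CoA from acetate, rose from 61.8 ± 4.51 to 163 ± 31.3 CPM (log2 fold change 1.40 ± 0.122), and the elongase ELOVL6 fell from 62.5 ± 3.35 to 35.5 ± 4.49 CPM (log2 fold change -0.82 ± 0.106). PPARA, a nuclear receptor that controls oxidation genes, rose from 2.94 ± 0.532 to 10.6 ± 3.09 CPM (log2 fold change 1.84 ± 0.192). DECR1, needed for the oxidation of unsaturated fatty acids, rose from 9.6 ± 0.932 to 23.8 ± 4.38 CPM (log2 fold change 1.31 ± 0.124), and ETFB, which passes their electrons on, from 10.1 ± 0.783 to 19.9 ± 3.38 CPM (log2 fold change 0.98 ± 0.105).

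Glucose uptake and glycolysis genes fell more often than they rose, with 12 of 25 lower, 6 higher and a median of -0.13. HK2, the hexokinase typical of cancer cells, was at 118, 103, 112 and 103 CPM in control and 31, 15.3, 23.3 and 25.5 CPM with PD0325901. All treated libraries were lower, and HK2 fell by 2.20 on the log2 scale (SE 0.183, adjusted p = 4.65e-10). SLC2A1, the glucose transporter GLUT1, was at 1537, 1445, 1208 and 1609 CPM in control and 494, 302, 409.7 and 392 CPM with treatment. It did not overlap between groups and fell by 1.86 on the log2 scale (SE 0.15, adjusted p = 1.14e-10). LDHA, which reduces pyruvate to lactate, fell from 1217 ± 123 to 709 ± 104 CPM (log2 fold change -0.78 ± 0.135). ALDOC, the brain-type aldolase, rose from 10.1 ± 0.789 to 30.5 ± 6.96 CPM (log2 fold change 1.60 ± 0.162), and PFKFB4, which sets the level of the activator fructose 2,6-bisphosphate, from 2.82 ± 0.396 to 7.91 ± 1.77 CPM (log2 fold change 1.49 ± 0.164).

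The oxidative side of central metabolism was mixed. Of 30 genes of pyruvate entry and the tricarboxylic acid cycle 9 rose and 9 fell, with a median of 0.05. Those that rose included the isocitrate dehydrogenases IDH1, from 569 ± 41.2 to 1097 ± 84.5 CPM (log2 fold change 0.95 ± 0.11), and IDH2, from 25.1 ± 0.777 to 56.5 ± 6.65 CPM (log2 fold change 1.17 ± 0.0921), and those that fell included DLST, a subunit of the 2-oxoglutarate dehydrogenase, from 286 ± 16.9 to 184 ± 21.4 CPM (log2 fold change -0.64 ± 0.0898). Of 50 subunits of respiratory complexes I, III, IV and V, 7 rose and 2 fell, a lower share than among all genes. With the replicate number as a block 11 of the 50 were called higher, and with scaling by library totals 12. None was called lower without PD0325901 replicate 2, and 1 without control replicate 4. In the pentose phosphate pathway 2 of 9 rose and 4 fell. RPIA, which makes ribose 5-phosphate, fell from 42.1 ± 1.8 to 24.9 ± 5.25 CPM (log2 fold change -0.75 ± 0.162). In this pathway 2 genes were called lower without PD0325901 replicate 2 or control replicate 3 or with scaling by library totals, and 1 was called higher without PD0325901 replicate 3 or control replicate 3 or with no filter.

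**Figure D3:**
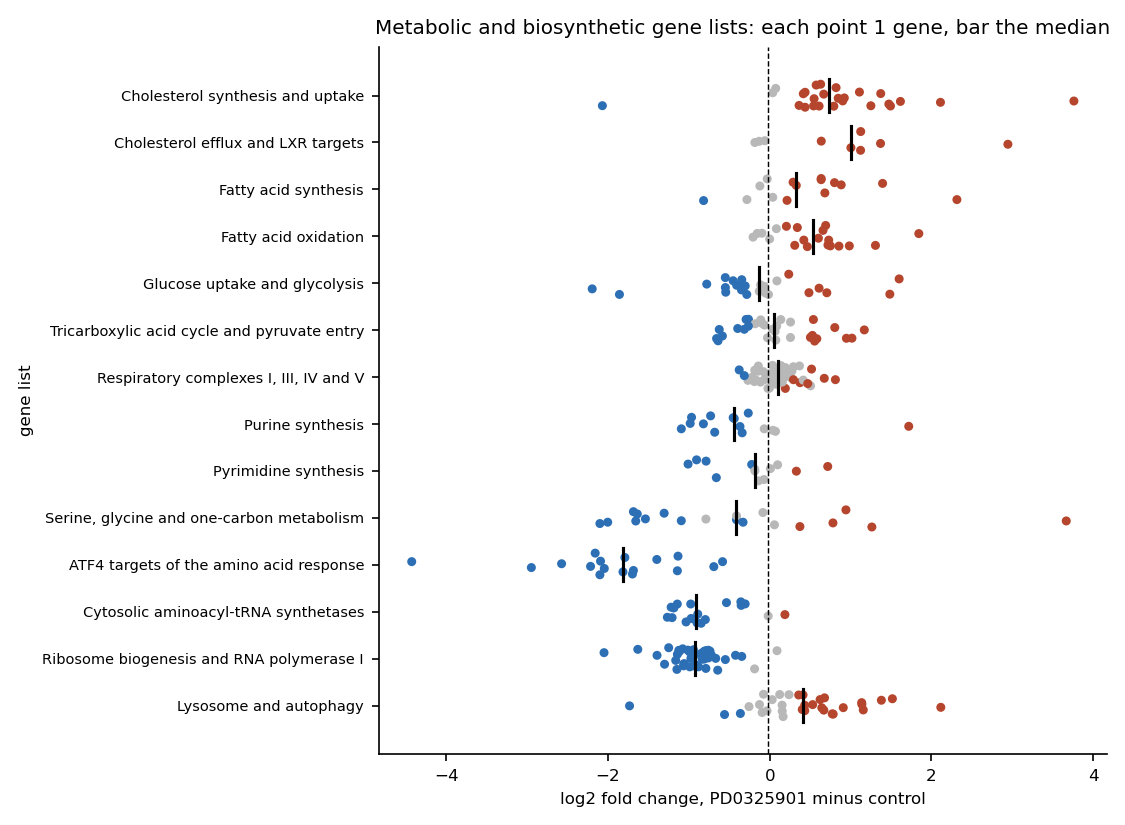
Log2 fold change of PD0325901 minus control (x axis) for each tested gene of 14 metabolic and biosynthetic lists, coloured red where higher, blue where lower and grey where not called, with the list median as a black bar and the median of all genes dashed. The amino acid response list lies wholly to the left with a median of -1.82, and 23 of the 26 points of the cholesterol list are red.

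Nucleotide synthesis was mostly lower for purines. Of 15 purine genes 11 fell and 1 rose, with a median of -0.44. PPAT, the committed step of purine synthesis, was at 85, 78.7, 90.2 and 68.9 CPM in control and 51.9, 38.2, 47.9 and 44.8 CPM with PD0325901. The ranges of the groups were apart, and PPAT fell by 0.82 on the log2 scale (SE 0.124, adjusted p = 3.37e-06). PAICS fell from 459 ± 28.2 to 335 ± 48.2 CPM (log2 fold change -0.45 ± 0.112), GART, which carries out several steps of the pathway, from 334 ± 18.6 to 171 ± 18.8 CPM (log2 fold change -0.97 ± 0.0991) and PFAS from 37.4 ± 0.903 to 17.5 ± 3.79 CPM (log2 fold change -1.09 ± 0.155). Of 13 pyrimidine genes 5 fell and 2 rose, so that 53.8% were called, against 58.6% of all genes. CTPS, which makes CTP from UTP, fell from 180.3 ± 5.53 to 89.5 ± 13.9 CPM (log2 fold change -1.01 ± 0.105), DHODH, the mitochondrial step, from 12.1 ± 0.663 to 6.46 ± 1.18 CPM (log2 fold change -0.91 ± 0.135), and CAD, which begins the pathway and is itself a substrate of ERK, was at 85.6 ± 3.85 CPM in control and 75.2 ± 9.38 CPM with PD0325901 (log2 fold change -0.19 ± 0.112, adjusted p = 0.158).

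The amino acid response was the list in which every tested member fell. All 17 tested targets of ATF4, the transcription factor that answers amino acid shortage and related stress, fell, with a median log2 fold change of -1.82. There was no overlap between groups in any of the 17, against 49% of all genes without overlap. Without PD0325901 replicate 2, 16 of the 17 were called lower. ASNS, which makes asparagine, was at 1162, 1767, 1269 and 1798 CPM in control and 487, 188, 382 and 349 CPM with PD0325901. It fell by 2.09 on the log2 scale (SE 0.367, adjusted p = 4.50e-05), and 44.6% of its exons overlap another gene on the same strand. TRIB3, a pseudokinase induced by ATF4, was at 23.5, 34.6, 24.8 and 41.5 CPM in control and 2.999, 0.515, 1.35 and 0.977 CPM with treatment. Its treated libraries were all far below the controls, and TRIB3 fell by 4.43 on the log2 scale (SE 0.528, adjusted p = 2.75e-07). INHBE, a chain of activin E, fell from 57.7 ± 7.41 to 7.52 ± 6.18 CPM (log2 fold change -2.95 ± 0.739), FGF21, a stress-induced hormone, from 11.1 ± 3.61 to 1.88 ± 1.88 CPM (log2 fold change -2.57 ± 0.728) and SLC7A11, the cystine importer, from 374 ± 47.3 to 80.4 ± 33.6 CPM (log2 fold change -2.22 ± 0.46). Without PD0325901 replicate 1 the log2 fold change was -3.65 for INHBE and -3.47 for FGF21.

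Serine, glycine and one-carbon genes, many of them ATF4 targets as well, fell in 10 of 19 and rose in 5, with a median of -0.41. PSAT1, the second enzyme of serine synthesis, was at 1643, 1976, 1830.4 and 1998 CPM in control and 802, 323, 623 and 566 CPM with PD0325901. The groups stood apart, and PSAT1 fell by 1.69 on the log2 scale (SE 0.265, adjusted p = 8.34e-06). MTHFD1L, a mitochondrial folate enzyme, fell from 198 ± 19.9 to 63.5 ± 15.6 CPM (log2 fold change -1.64 ± 0.174). GLDC, which breaks down glycine, was the largest rise of the list, from 4.07 ± 0.748 to 51.7 ± 8.76 CPM (log2 fold change 3.67 ± 0.228).

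Of 21 amino acid transporters 13 fell and 6 rose, with a median of -0.79. SLC7A5, the LAT1 transporter of leucine and other large amino acids, was at 1073, 1016, 850.3 and 1044 CPM in control and 623, 335, 442 and 415 CPM with treatment. It was lower in every treated library and fell by 1.13 on the log2 scale (SE 0.159, adjusted p = 1.23e-06). SLC38A2, which imports glutamine and alanine, fell from 777 ± 84.1 to 212 ± 26.7 CPM (log2 fold change -1.87 ± 0.14). SLC7A7 and SLC7A8, of the same family as SLC7A5, rose from 243 ± 9.61 to 538 ± 85.4 CPM (log2 fold change 1.15 ± 0.0991) and from 8.67 ± 0.676 to 26.1 ± 2.7 CPM (log2 fold change 1.59 ± 0.104). Of 20 cytosolic aminoacyl-tRNA synthetases, which load amino acids onto tRNA, 18 fell, with a median of -0.91. YARS fell from 427 ± 15.5 to 177 ± 31.7 CPM (log2 fold change -1.27 ± 0.152) and GARS from 804 ± 33.7 to 348 ± 54.3 CPM (log2 fold change -1.21 ± 0.16). The 1 member that rose was QARS, from 169 ± 8.04 to 192 ± 13.4 CPM (log2 fold change 0.19 ± 0.0728) with overlapping groups. Its call was lost without PD0325901 replicates 2 or 3 or control replicates 2 or 4, and over the fits without 1 library the log2 fold change ran from 0.16 to 0.24. It was also lost with a fit of only the 2 groups or no filter on low counts. RARS was at 139.5 ± 13.4 CPM in control and 138 ± 16.9 CPM with PD0325901 (log2 fold change -0.02 ± 0.1001, adjusted p = 0.88).

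Genes of ribosome production were lower. Of 42 genes of ribosome biogenesis and RNA polymerase I 40 fell and 0 rose, with a median of -0.92. RRP12, a transport factor of the ribosomal subunits, fell from 79.8 ± 8.46 to 19.3 ± 5.2 CPM (log2 fold change -2.05 ± 0.189) and DDX21, a nucleolar helicase, from 681 ± 35.2 to 219.6 ± 42.9 CPM (log2 fold change -1.63 ± 0.155). The 2 members not called were UBTF, the polymerase I factor, at 64.1 ± 6.93 CPM in control and 68.3 ± 1.9 CPM with PD0325901 (log2 fold change 0.09 ± 0.0926, adjusted p = 0.42), and DKC1, at 259 ± 14.1 CPM in control and 228 ± 19.9 CPM with PD0325901 (log2 fold change -0.19 ± 0.102, adjusted p = 0.116), which was called lower with the replicate number as a block. Of 12 polyamine genes 7 fell and 2 rose. ODC1, the rate-limiting enzyme of polyamine synthesis and a known MYC target, was at 426, 374, 384 and 380.3 CPM in control and 246, 203, 245 and 203 CPM with PD0325901. The groups did not overlap, and ODC1 fell by 0.80 on the log2 scale (SE 0.0878, adjusted p = 2.11e-08). OAT, which makes glutamate semialdehyde from ornithine, rose from 249 ± 20.6 to 613 ± 89.9 CPM (log2 fold change 1.30 ± 0.121).

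Lysosomal genes rose in 19 of 33 and fell in 3, with a median of 0.41. NEU1, a lysosomal sialidase, rose from 30.9 ± 4.03 to 88.5 ± 15 CPM (log2 fold change 1.52 ± 0.156), and CTSD, the protease cathepsin D, from 198 ± 13.2 to 442 ± 55.2 CPM (log2 fold change 1.16 ± 0.107), with 41.7% of its exons shared with another gene on the same strand. MAP1LC3B, the autophagosome protein LC3B, fell from 385 ± 62.3 to 116 ± 4.28 CPM (log2 fold change -1.73 ± 0.115). Genes of endoplasmic reticulum chaperones and the unfolded protein response rose in 13 of 20, with a median of 0.64. PDIA4, a disulfide isomerase, rose from 408 ± 29.9 to 1096 ± 185 CPM (log2 fold change 1.43 ± 0.12), and MANF, a secreted stress protein, from 72.9 ± 6.62 to 191 ± 33.8 CPM (log2 fold change 1.39 ± 0.14). The 5 that fell included the unfolded protein sensor ERN1 (IRE1), from 11.2 ± 1.56 to 3.78 ± 1.19 CPM (log2 fold change -1.57 ± 0.16), and its effector XBP1, from 406 ± 29.7 to 192 ± 18.8 CPM (log2 fold change -1.08 ± 0.114). The count of those that fell was 3 without PD0325901 replicate 1 or with scaling by library totals or upper quartile. HSPA5 (BiP), the central chaperone, was at 1641 ± 183 CPM in control and 1995 ± 415 CPM with PD0325901 (log2 fold change 0.28 ± 0.129, adjusted p = 0.0635). It was called without PD0325901 replicates 1 or 4 or control replicate 1, and over the fits without 1 library the log2 fold change ran from 0.16 to 0.39. It was also called with scaling by library totals or upper quartile scaling. It was also called higher with the replicate number as a block.

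NRF2 target and glutathione genes split evenly, with 10 of 23 higher and 10 lower. HMOX1, which degrades heme, rose from 48.6 ± 4.59 to 182 ± 28.8 CPM (log2 fold change 1.91 ± 0.122), and TXNRD1, thioredoxin reductase, fell from 357 ± 21.5 to 144 ± 12.1 CPM (log2 fold change -1.31 ± 0.0899). NFE2L2, the gene of NRF2 itself, fell from 239.7 ± 11.5 to 121 ± 9.72 CPM (log2 fold change -0.98 ± 0.0941). Of 16 target genes of the hypoxia-inducible factors 9 rose and 4 fell. VEGFA, the endothelial growth factor, fell from 236 ± 28.2 to 77.2 ± 19.6 CPM (log2 fold change -1.61 ± 0.156), and NDRG1 rose from 8.3 ± 0.618 to 16 ± 3.43 CPM (log2 fold change 0.94 ± 0.14). HIF1A was at 492 ± 48.4 CPM in control and 419 ± 80.6 CPM with PD0325901 (log2 fold change -0.23 ± 0.112, adjusted p = 0.0768), and was called lower with the replicate number as a block. It was called without PD0325901 replicate 2, and over the fits without 1 library the log2 fold change ran from -0.32 to -0.14. Of 14 heat shock genes 5 rose and 4 fell, among them HSPD1, a mitochondrial chaperonin, which fell from 1278 ± 112 to 762 ± 134 CPM (log2 fold change -0.75 ± 0.136).

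Interferon-response and antigen-presentation genes were higher almost throughout. Of 24 interferon-response genes 23 rose and 1, IRF7, fell, with a median of 1.14. Of 17 antigen-presentation genes 15 rose and 0 fell, with a median of 0.86. B2M, the invariant chain of class I molecules, was at 434, 629, 494 and 556 CPM in control and 815, 926, 909 and 1194 CPM with PD0325901. Each of the treated libraries was higher, and B2M rose by 0.86 on the log2 scale (SE 0.211, adjusted p = 0.0012). TAPBP, which loads peptide onto class I, was at 39.2, 34.6, 39 and 37.3 CPM in control and 135, 174, 127 and 116 CPM with treatment. It did not overlap between groups and rose by 1.88 on the log2 scale (SE 0.116, adjusted p = 9.00e-13). Many members started near 0: the membrane protein BST2, which tethers viruses, rose from 0.168 ± 0.04003 to 2.53 ± 0.323 CPM (log2 fold change 3.87 ± 0.279), the oligoadenylate synthetase OAS2 from 0.266 ± 0.225 to 2.08 ± 0.226 CPM (log2 fold change 2.90 ± 0.306), and PSMB9, an immunoproteasome subunit, from 0.427 ± 0.0796 to 3.12 ± 0.678 CPM (log2 fold change 2.87 ± 0.271). The log2 fold change of OAS2 was 3.69 without control replicate 3. IRF7 fell from 17.2 ± 2.35 to 13.7 ± 0.596 CPM (log2 fold change -0.33 ± 0.0991) with overlapping groups.

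Chemokine and NF-kB feedback genes moved in both directions. Of 15 tested 7 fell and 5 rose, with a median of -0.41. Besides IL8, CXCL3 fell from 10.3 ± 3.8 to 5.11 ± 0.252 CPM (log2 fold change -1.01 ± 0.219) and CXCL1 from 2.97 ± 0.525 to 1.3 ± 0.333 CPM (log2 fold change -1.18 ± 0.255), and these chemokines are alike in sequence. CXCL16, a membrane-bound chemokine, rose from 66.5 ± 6.94 to 168 ± 32.8 CPM (log2 fold change 1.33 ± 0.132). ICAM1, an adhesion molecule induced by NF-kB, was at 45.4 ± 1.15 CPM in control and 44.6 ± 6.35 CPM with PD0325901 (log2 fold change -0.03 ± 0.0831, adjusted p = 0.804), and the inhibitor NFKBIE at 6.29 ± 0.41 CPM in control and 6.2 ± 0.633 CPM with PD0325901 (log2 fold change -0.02 ± 0.123, adjusted p = 0.892).

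Differentiation genes of the stomach and intestine rose in 14 of 27 and fell in 4, with a median of 0.35. LYZ, which encodes lysozyme, a secretory product of gastric and intestinal glands as well as of macrophages, was at 37.7, 48.4, 45.5 and 48.1 CPM in control and 311, 414, 382 and 452 CPM with PD0325901. All treated libraries were far above the controls, and LYZ rose by 3.12 on the log2 scale (SE 0.171, adjusted p = 2.68e-13). The leukocyte markers summed to 40.1 to 50.5 CPM in control and 317 to 456 CPM with treatment, and LYZ made up nearly all of that sum. Of the 10 leukocyte markers 3 were tested, and all 3 rose. Besides LYZ these were the macrophage marker CD68, at 0.617 to 0.907 CPM in control and 1.12 to 3.50 CPM with PD0325901, and CSF1R, a receptor of macrophages, at 1.16 to 1.38 CPM and 2.30 to 4.89 CPM. PTPRC, the pan-leukocyte marker, was at most at 0.0972 CPM and CD14 at most at 0.140 CPM in the 8 libraries. The part of other cell types in the LYZ result was not tested. PGC, which encodes the stomach protease pepsinogen C, rose from 1.49 ± 0.253 to 8.04 ± 3.68 CPM (log2 fold change 2.43 ± 0.238), and the membrane mucin MUC20 from 6.61 ± 0.377 to 46.2 ± 17.4 CPM (log2 fold change 2.80 ± 0.207), with 42.8% of its exons in another gene of the same strand. KLF4, an epithelial factor and also a growth-factor responsive gene, was at 184, 195, 163 and 199 CPM in control and 35.5, 24.6, 35.9 and 27.2 CPM with treatment. It moved against the majority of the list and fell by 2.59 on the log2 scale (SE 0.153, adjusted p = 8.27e-13). KLF5, its relative of proliferating epithelium, fell from 449 ± 31.9 to 171 ± 17.9 CPM (log2 fold change -1.39 ± 0.0938), and the marker CEACAM5 from 5.38 ± 1.33 to 2.16 ± 0.827 CPM (log2 fold change -1.32 ± 0.226).

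Adhesion and polarity genes rose in 9 of 21 and fell in 4. CDH1, which encodes E-cadherin, rose from 13.3 ± 1.29 to 18.7 ± 3.22 CPM (log2 fold change 0.48 ± 0.137) with overlapping groups, EPCAM from 646 ± 18.7 to 888 ± 84 CPM (log2 fold change 0.46 ± 0.0827) and TJP3, of the tight junction, from 9.83 ± 0.743 to 40 ± 7.15 CPM (log2 fold change 2.03 ± 0.142). CLDN1 fell from 152 ± 9.48 to 89.3 ± 16.9 CPM (log2 fold change -0.77 ± 0.124), the splicing factor ESRP1 from 276 ± 21.8 to 157 ± 9.95 CPM (log2 fold change -0.81 ± 0.0928) and the epithelial factor GRHL2 from 71.5 ± 4.01 to 34.6 ± 4.34 CPM (log2 fold change -1.05 ± 0.0949). Of 9 mesenchymal genes tested 3 rose and 4 fell; S100A4 rose from 36.9 ± 5.17 to 153 ± 34.8 CPM (log2 fold change 2.05 ± 0.223), VIM, vimentin, from 6.37 ± 0.479 to 11 ± 0.757 CPM (log2 fold change 0.78 ± 0.0935), and CDH11 and CD44 fell from 10.5 ± 0.754 to 3.14 ± 0.698 CPM (log2 fold change -1.74 ± 0.16) and from 27.2 ± 4.3 to 13.2 ± 2.18 CPM (log2 fold change -1.05 ± 0.133). Among 17 keratins 3 rose and 6 fell, and without PD0325901 replicate 4, or with scaling by library totals or upper quartile, the count of rises was 5. Of the keratins 52.9% were called, against 58.6% of all genes. KRT19 rose from 450.5 ± 38.1 to 689.9 ± 106 CPM (log2 fold change 0.61 ± 0.116), and KRT17 fell from 44.1 ± 9.73 to 17.8 ± 3.07 CPM (log2 fold change -1.31 ± 0.191). Of 14 genes of the plasminogen system and matrix proteases 9 rose and 4 fell; the membrane protease MMP14 rose from 212 ± 10.4 to 485 ± 80.2 CPM (log2 fold change 1.19 ± 0.102), and the urokinase receptor PLAUR from 9.14 ± 1.66 to 22.1 ± 4.65 CPM (log2 fold change 1.27 ± 0.145).

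Of 17 target genes of YAP and TEAD factors 11 fell and 2 rose, with a median of -0.34; ANKRD1, CTGF and CYR61 are shared with the falls given above. Of 16 Wnt target genes 7 rose and 5 fell. DKK1, a secreted Wnt inhibitor, was at 478, 477, 521 and 562 CPM in control and 1664, 1561, 1995 and 2106 CPM with PD0325901. There was no overlap between the groups, and DKK1 rose by 1.85 on the log2 scale (SE 0.107, adjusted p = 3.14e-13). LGR5, a receptor that marks stem cells of stomach and intestine, rose from 125 ± 11.1 to 226 ± 17.2 CPM (log2 fold change 0.85 ± 0.0884), and ZNRF3, which removes Wnt receptors, fell from 47 ± 2.34 to 22.4 ± 5.11 CPM (log2 fold change -1.07 ± 0.146). Of 14 TGF-beta and BMP targets 8 fell and 3 rose; SMAD7 fell from 38.5 ± 1.81 to 19.5 ± 0.885 CPM (log2 fold change -0.98 ± 0.0771), TGFBI from 10.8 ± 3.13 to 3.39 ± 0.967 CPM (log2 fold change -1.67 ± 0.217), and ID2 rose from 94.1 ± 21 to 188 ± 20.6 CPM (log2 fold change 1.0 ± 0.128).

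**Figure D4:**
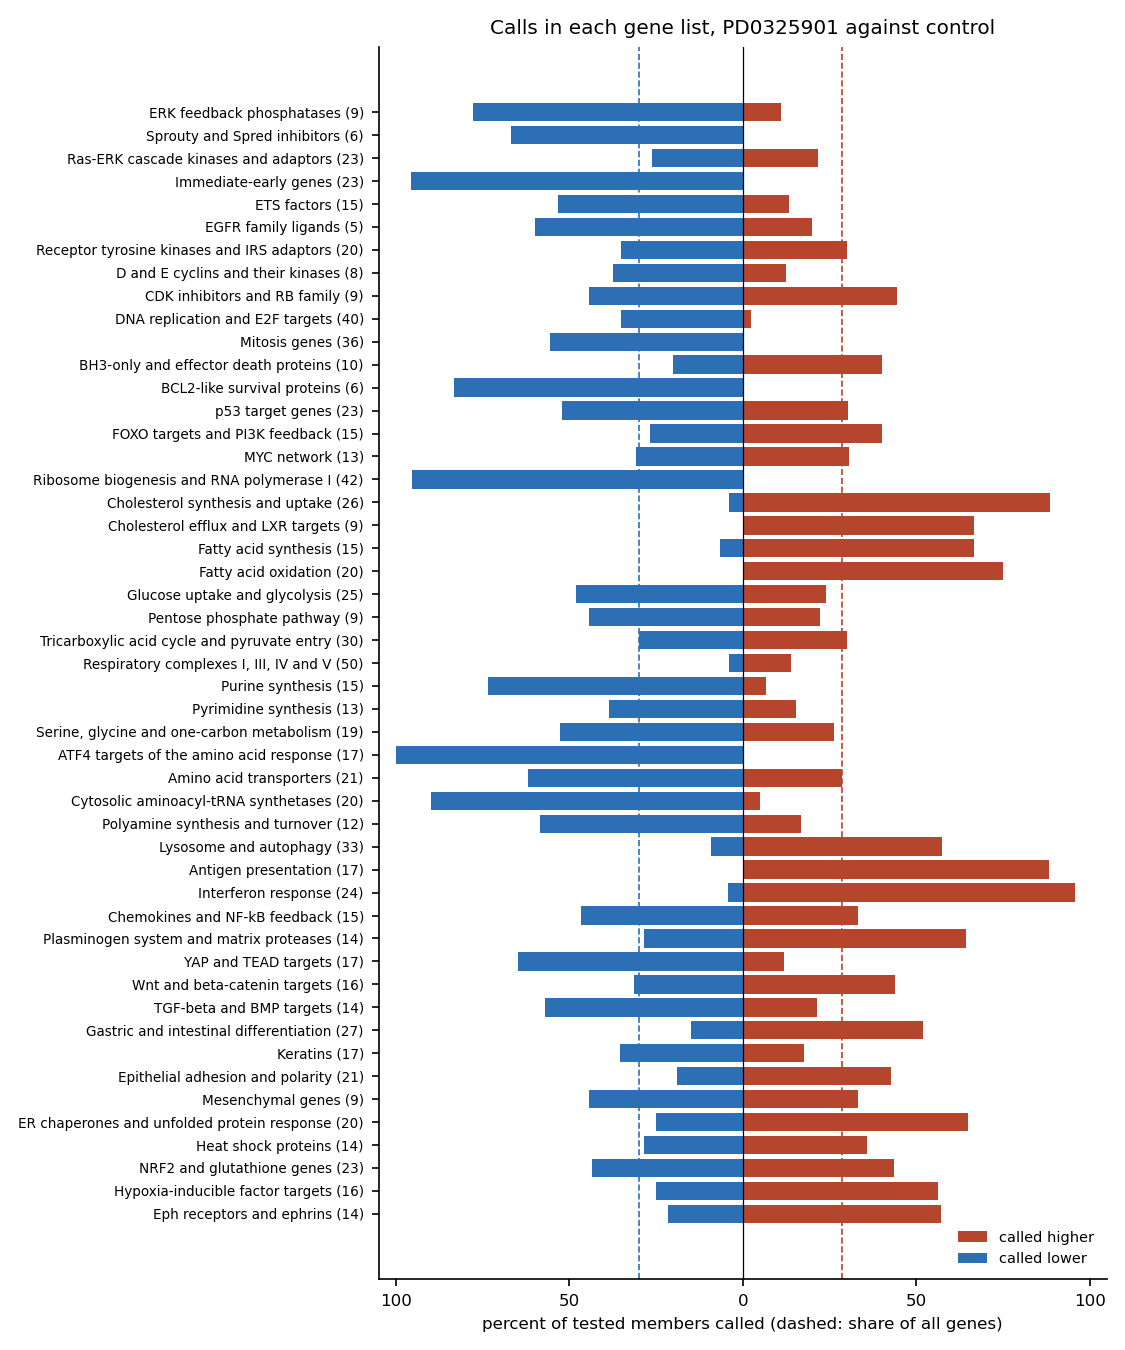
Percent of the tested members of each gene list (number tested in brackets) that were called higher (red, to the right) or lower (blue, to the left) with PD0325901, with the shares over all genes, 28.7% and 29.9%, dashed. The amino acid response list reaches 100% lower, and cholesterol synthesis (23 of 26), antigen presentation (15 of 17) and the interferon response (23 of 24) reach farthest to the higher side.

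The treated cells were also compared directly with cells under the other 2 inhibitors, which tests where PD0325901 gave another level than they did. Against PI103, 6208 of 13947 genes (44.5%) were called, 3188 (22.9%) higher and 3020 (21.7%) lower with PD0325901. ETV4 differed most in the falling direction: PI103 cells had 80.1 ± 3.64 CPM, beside 68 ± 7.97 CPM in control, against 1.12 ± 0.523 CPM with PD0325901 (log2 difference -6.16, SE 0.432, adjusted p = 2.31e-10). TLR4 was at 81.8 ± 5.25 CPM with PI103 and 1.89 ± 0.928 CPM with PD0325901 (log2 difference -5.43, SE 0.344, adjusted p = 3.05e-11). DUSP6 stood at 49 ± 5.89 CPM with PI103, between the control and the PD0325901 level (log2 difference -3.76, SE 0.308, adjusted p = 1.46e-09). MPP1 was at 0.211 ± 0.0658 CPM with PI103 and 18.6 ± 4.79 CPM with PD0325901 (log2 difference 6.45, SE 0.361, adjusted p = 1.79e-12), and APOBEC2 was at 1.11 ± 0.192 CPM against 45.3 ± 14 CPM (log2 difference 5.35, SE 0.277, adjusted p = 8.04e-13). TMEM156 and TNS4 were lower with PD0325901 as well, by log2 differences of -4.15 and -4.02.

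A pair of stress-response genes fell with PD0325901 and were lower still with PI103. DDIT4, an inhibitor of mTOR that ATF4 induces, fell from 668 ± 98.7 to 162 ± 55 CPM (log2 fold change -2.05 ± 0.634) with PD0325901 and was at 3.11 ± 0.641 CPM with PI103 (log2 difference 5.70, SE 0.771, adjusted p = 6.59e-06). INHBE had 3142 to 5007 counts per control library, 185 to 886 with PD0325901 and 1 to 3 with PI103. ECM2, an extracellular matrix protein, was at 21.7 ± 1.72 CPM in control, 4.86 ± 2.35 CPM with PD0325901 and 0.101 ± 0.0433 CPM with PI103 (log2 difference 5.58, SE 0.638, adjusted p = 2.46e-07).

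Against oxozeaenol, 3976 of 13947 genes (28.5%) were called, 2102 (15.1%) higher and 1874 (13.4%) lower with PD0325901; without PD0325901 replicate 2 the count was 2385. DUSP6, ETV4 and ETV5 were among the 5 largest differences toward a lower level with PD0325901. DUSP6 was at 22.5 ± 9.22 CPM with oxozeaenol and 3.6 ± 1.33 CPM with PD0325901 (log2 difference -2.64, SE 0.299, adjusted p = 1.41e-06). ETV4 was at 12.8 ± 5.68 CPM with oxozeaenol (log2 difference -3.52, SE 0.41, adjusted p = 2.56e-06), and ETV5 at 50 ± 13.2 CPM (log2 difference -2.61, SE 0.47, adjusted p = 4.77e-04). TLR4 and MYH4 were the other 2 of the 5 largest differences in that direction, with log2 differences of -2.89 and -2.43. MYH4 overlapped between these groups, at 0.582 to 6.01 CPM with oxozeaenol and 0.244 to 0.844 CPM with PD0325901. In the other direction were genes that rose with PD0325901 and whose mean with oxozeaenol was below the control mean. DPYSL3, a cytoskeletal protein, was at 311 ± 20.4 CPM in control, 818 ± 92.8 CPM with PD0325901 and 109.7 ± 43 CPM with oxozeaenol (log2 difference 2.90, SE 0.197, adjusted p = 3.08e-10). NLRP7, of the NOD-like receptors, was at 4.59 ± 0.649 CPM, 33.4 ± 8.65 CPM and 2.51 ± 0.473 CPM in the same order (log2 difference 3.75, SE 0.155, adjusted p = 3.10e-15). NAV2, a neuron navigator protein, was at 20 ± 0.843 CPM, 93.4 ± 14.9 CPM and 15.2 ± 3.83 CPM (log2 difference 2.62, SE 0.137, adjusted p = 3.81e-13). SIPA1L2 and LOC153469 completed these 5, with log2 differences of 2.61 and 4.49. The oxozeaenol libraries were uneven, from 38057638 counts in replicate 3 to 73993581 in replicate 2. Replicate 2 had counts in 18263 genes and the other oxozeaenol libraries in 15645 to 16507. In the groups compared here each inhibitor was used at 1 concentration, so these differences hold for those concentrations.

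**Figure D5:**
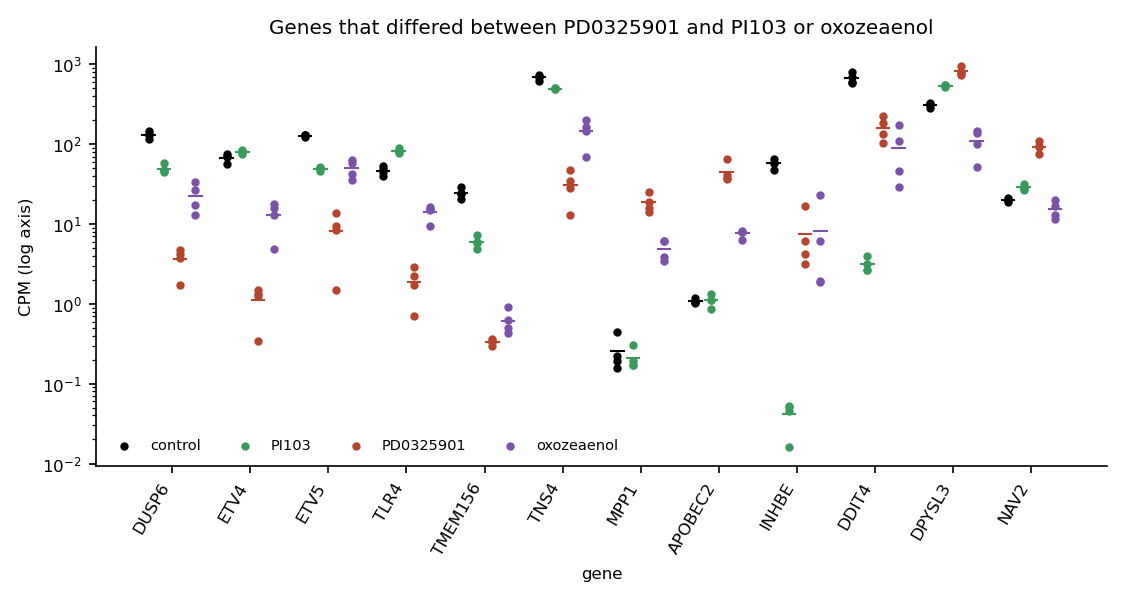
CPM on a log axis of 12 genes in each library of control (black), PI103 (green), PD0325901 (red) and oxozeaenol (purple), with the mean as a bar. DUSP6, ETV4, ETV5, TLR4, TMEM156 and TNS4 are lowest with PD0325901, and INHBE and DDIT4 are lowest with PI103.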

How the data were processed

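The authors deposited a table of whole-number counts of reads per gene symbol for 24 libraries, made from 0.8 µg of total RNA with a stranded mRNA kit per the labels' protocols and on GRCh38 per the submitters' processing notes. The aligner, counter and annotation are not given in the sources used here, nor is whether counting used strand. Its 5 closing tallies (no feature, 4.24% to 8.57% of reads; ambiguous, 1.57% to 2.01%; not uniquely aligned, 4.64% to 6.06%) were left out. No column outside the 24 samples was in the table. Of 23368 genes, 3199 had 0 counts throughout; edgeR's filterByExpr kept 13947, with 99.99% of counts.

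The model was edgeR 4.0.16 (R 4.3.3) on TMM-scaled libraries, with robust estimateDisp and glmQLFit and 1 coefficient per group over all 24 libraries; the common biological coefficient of variation was 0.131. Tests were two-sided quasi-likelihood F tests, Benjamini-Hochberg adjusted over all genes, called under 0.05. SE is the absolute log2 fold change over the square root of F, and CPM uses the TMM-scaled library size. In simulated data for PD0325901 against control over 13798 genes, 80 of 100 genes changed by 1 on the log2 scale and 97 of 100 changed by 2 were recovered, with 13 false calls. The simulated counts were drawn from the model's own estimate of each gene's spread. No other gene was changed and no library was made to stand apart. In the real data 58.6% of genes were called, so these figures are not the error rate of the reported calls. Replicates of a group differed beyond counting noise, so none was merged.

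The replicate number is labelled as a batch, which pairs the samples; deviations of same-numbered control and PD0325901 libraries correlated at 0.09, -0.17, -0.14 and 0.15. Each batch holds 1 library of a group, so within a batch there is no replicate, and the fit with the batch as a block stands in for within-batch tests. Alternatives were DESeq2 1.42.0, other scalings, no filter, only the 2 groups, the replicate block, a minimum change of 1 (glmTreat) and leaving out each library. Named genes are the 12 largest rises and falls of at least 5 CPM without overlap of groups, preset key genes, the 3 largest called changes each way per list at 1 CPM or more with members not called where at most 3, and the 5 largest direct differences each way; a few genes that this rule names are not reported here. Members and lists were chosen with earlier results of these data known. Of the symbols, 21646 were matched to GENCODE release 29, directly or by RefSeq synonyms; overlaps of at least 10% of exons on the same strand or 25% on the other are given for named genes.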

Additional observations from a re-analysis of the deposited data

Results flagged for a closer look

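In 22 of 402 groups of 4 libraries (201 genes named above, control and PD0325901; 5.47%), the highest or lowest CPM lay farther from the other 3 than Dixon's 95% limit allows. Chance alone passes that limit in about 1 group in 20. The 13 in which PD0325901 replicate 2 stood apart are given first, against 2 for replicate 1, 0 for replicates 3 and 4, and 7 for the controls.

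PD0325901 replicate 2 was the highest of its group for APOBEC2 (66.1 CPM, the others 36.6 to 40.7), CCNG2 (41.9, the others 26.2 to 28.8), CDKN2B (155, the others 98.2 to 104) and IL8 (0.343, the others 0.206 to 0.217). The same held for MUC20 (72.0 CPM, the others 34.4 to 39.4), PDZK1IP1 (42.9, the others 14.5 to 17.5), PPARA (15.1, the others 8.50 to 9.50) and RHOBTB1 (23.4, the others 7.63 to 9.18). It was also highest for SPTLC3 (139 CPM, the others 63.7 to 70.9) and TJP3 (50.8, the others 35.9 to 36.9). It was the lowest for CXCL3 (4.74 CPM, the others 5.20 to 5.29), GART (143, the others 179 to 181) and RRM2 (137, the others 190.0 to 193). In 12 of these 13 genes, IL8 being the exception, it lay farther from the controls than the other treated libraries.

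PD0325901 replicate 1 was the highest of its group for SLC7A11 (131 CPM, the others 62.4 to 65.6) and TXNIP (117, the others 40.6 to 52.9), nearer to the controls than the others. Among the controls, replicate 1 was highest for CCNE1 (60.8 CPM, the others 50.2 to 51.6), CTPS (189, the others 177 to 178) and PLAUR (11.6, the others 8.20 to 8.49). Control replicate 3 was highest for DUOX2 (0.550 CPM, the others 0.279 to 0.292), ID2 (126, the others 82.0 to 84.7) and SPRED1 (131, the others 98.3 to 103), and control replicate 4 for DUSP4 (451, the others 359 to 368).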

How the results depend on the processing

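Of 184 named genes called against control, DESeq2, RLE size factors and the replicate block lost 0, other scalings, no filter and the fit of only the 2 groups lost 1 to 3, and leaving out 1 library lost 0 to 5, most without PD0325901 replicate 2; no direction reversed. Called genes against control numbered 7214 to 8750 over all settings but the minimum change, with 8750 under the replicate block and 7436 to 7920 with 1 library left out; the block gave 6891 against PI103 and 5067 against oxozeaenol, and it lost no call of a named gene. Scaling by library totals or upper quartile gave 57.4% and 58.2% of calls higher, beside 49%. Testing for a change above 1 log2 unit, a stricter question, left 1098 genes against control (750 higher, 348 lower), 656 against PI103 (445 and 211) and 91 against oxozeaenol (67 and 24), and kept 100 of the 184 named calls. Fitting only the 2 groups left 2348 genes against oxozeaenol (1300 and 1048), with fewer libraries to estimate the spread. Leaving out 1 library gave 2385 to 4282 genes against oxozeaenol (1430 to 2319 higher, 955 to 2031 lower), the lowest of each without PD0325901 replicate 2, and the cause was not tested. IRF7, the 1 interferon gene that fell, was not called with upper quartile scaling. Genes under about 1 CPM rest on few counts, which limits the precision of their fold changes.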
